A study of Mus musculus with 20 samples.

Results

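The heat shock and chaperonin genes are the chaperones of the cell named by family. They were taken as every protein-coding row whose symbol starts with Hspa, Hspb and a digit, Hsp90, Hspd1, Hspe1, Hsph1, Dnaja, Dnajb, Dnajc, or Cct and a digit, together with Tcp1. The rule found 83 rows of the 39174 genes in the files, of which 22736 are protein-coding. The 83 rows carry 82 symbols, because Hspa14 is listed under 2 identifiers, and they were chosen by name and not by any measured value. They hold 14 Hsp70 rows, 1 Hsp110 gene, 4 Dnaja, 13 Dnajb and 28 Dnajc genes, 3 Hsp90 genes, 8 small heat shock genes, 2 genes of the mitochondrial chaperonin and 10 genes of the cytosolic chaperonin.

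Molecular chaperones bind unfolded protein and let it fold without clumping. Hsp70 proteins do this in cycles of ATP hydrolysis that J-proteins (the Dnaja, Dnajb and Dnajc genes) start and that Hsp110 helps to end, Hsp90 proteins mature folded clients such as kinases and receptors, and small heat shock proteins hold unfolded chains until the others take over. The chaperonins are closed chambers. The mitochondrial one is made of Hspd1 rings with an Hspe1 lid, and the cytosolic one, called CCT or TRiC, is a double ring of different subunits that folds actin and tubulin, the building blocks of the axonal cytoskeleton.

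Motoneurons from spinal cords of CD-1 mouse embryos were enriched on dishes coated with an antibody, which leaves some other cells in culture, and were grown in microfluidic chambers where axons cross into a separate compartment. Control cultures were transduced with an empty lentiviral vector (titled GFP in the labels), and the knockdown cultures with a lentivirus encoding a short hairpin RNA against Tdp-43 (shTdp-43), an RNA-binding protein encoded by Tardbp. Total RNA of the axonal and of the somatodendritic side (cell bodies and dendrites) was amplified and sequenced in 4 control and 6 knockdown libraries per compartment, 20 libraries in all. The comparisons ask which chaperone transcripts are found in axons and which change when Tdp-43 is depleted. Nothing in the labels ties a library to a culture, so p-values measure only the spread between libraries, and a shared replicate number is not known to mark a shared culture. The control libraries had been used in an earlier study but were processed alongside the knockdown libraries, and no batch is given. In bulk RNA, fewer cells of a type and less RNA per cell cannot be told apart either.

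Levels are in FPKM, fragments scaled to transcript length and library size, which is a level per length. Read totals are not part of the files, so depth was estimated from the width of each value's confidence interval, expressed as implied fragments. With the deepest library set to 1, depth was 0.530 to 1 in the control libraries and 0.103 to 0.761 in the knockdown libraries. A member rested on a median of 1 to 11.2 implied fragments per library, which are not read counts. Single values of low members therefore carry a large uncertainty. Tardbp was at 19 to 30.8 FPKM in somatodendritic control and 0 to 8.54 FPKM in somatodendritic knockdown libraries. In axonal libraries it was at 13.4 to 32.3 FPKM in controls and 1.21 to 33.2 FPKM after knockdown. The highest of these, 33.2 FPKM, came from the library labelled axonal knockdown replicate 1, in which Tardbp was not lowered. Of the 6 motoneuron markers, 5 are in the files. Chat and Mnx1 were at 0 in every library, and Isl1 (up to 8.03 FPKM), Prph (up to 3.06 FPKM) and Slc5a7 (up to 0.268 FPKM) were above 0 in some. All 5 were at 0 in the axonal knockdown libraries. By contrast, 5 general neuron markers summed to 1500 to 2350 FPKM in the somatodendritic libraries. Markers of dividing cells summed to 86.3 to 163 FPKM in axonal control against 44.4 to 65.9 FPKM in somatodendritic control libraries.

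In the control libraries, the most abundant families by summed FPKM were Hsp90 and Hsp70. In the somatodendritic ones, the 3 Hsp90 genes summed to 957 to 1050 FPKM, the 14 Hsp70 rows to 518 to 617 FPKM, the 28 Dnajc genes to 474 to 537 FPKM and the 10 cytosolic chaperonin genes to 376 to 477 FPKM. The Dnajb genes summed to 116 to 123 FPKM, the Dnaja genes to 64.2 to 91.2 FPKM, the mitochondrial chaperonin to 41.0 to 50.9 FPKM and the small heat shock genes to only 3.90 to 15.1 FPKM. All members together took 0.286% to 0.711% of the summed FPKM of a library. Of the 83 rows, 37 were above 0 in every library and 7 were at 0 in all (Dnajb8, Dnajc5b, Dnajc5g, Dnajc22, Hspb2, Cct6b and Cct8l1), including 2 chaperonin paralogs. For the tests, median-of-ratios factors brought the libraries to one scale, and log2(FPKM + 1) was compared with limma for genes whose mean reached 1 FPKM. This left 67 members in the somatodendritic and 68 in the axonal knockdown comparison, 68 between compartments and 66 in the test of the difference of the knockdown changes.

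**Figure D1:**
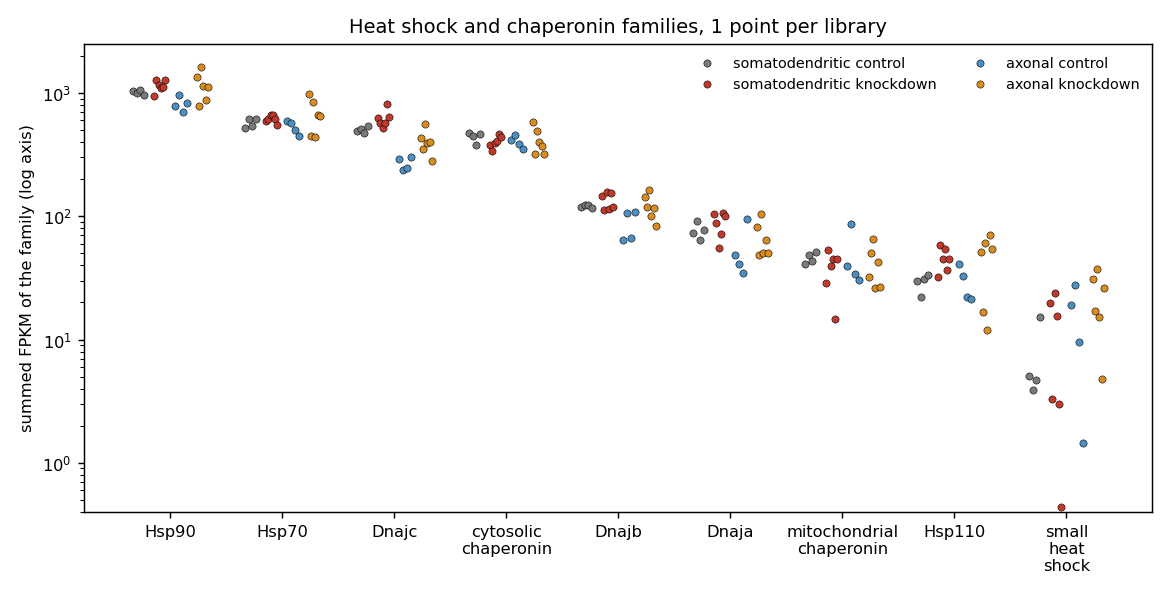
Summed FPKM as deposited of each family in each of the 20 libraries (log axis), coloured by group. The Hsp90 genes lie highest in every library. The small heat shock genes lie lowest except in axonal knockdown replicates 2 and 4, where Hsp110 does, with 1 somatodendritic knockdown library at 0 drawn at the bottom edge.

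Hsp90ab1, the constitutive cytosolic Hsp90, was at 390 to 606 FPKM in axonal control and 567 to 628 FPKM in somatodendritic control libraries. Hsp90aa1, its inducible partner, was at 152 to 272 FPKM and 286 to 367 FPKM, and 47.5% of its 50-base stretches occur in other genes, mostly a pseudogene (Gm12346). Hsp90b1, the Hsp90 of the endoplasmic reticulum (ER), was at 77.2 to 97.7 FPKM in axonal and 58.0 to 89.5 FPKM in somatodendritic controls. Among the Hsp70 genes, the constitutive Hspa8 was at 160 to 218 FPKM and 193 to 265 FPKM, the ER-resident Hspa5 (BiP) at 131 to 217 FPKM and 122 to 161 FPKM, and Hspa4 at 42.3 to 65.4 FPKM and 56.0 to 73.6 FPKM. The heat-inducible Hspa1a and Hspa1b stayed below 5 FPKM in all control libraries. Dnajc6 (auxilin), which recruits Hspa8 to uncoat clathrin vesicles, was the highest J-protein gene with 99.3 to 138 FPKM in somatodendritic controls. Next came Dnajc5, the cysteine string protein of synaptic vesicles, with 62.4 to 91.6 FPKM, the cytosolic Dnajc7 with 57.3 to 105 FPKM and the mitochondrial Dnajc11 with 53.6 to 59.9 FPKM, whose ranges overlap in part. Dnaja1 (32.8 to 45.8 FPKM), Dnaja2 (21 to 35.1 FPKM), Dnajb5 (12.3 to 29.1 FPKM), Dnajb6 (21.7 to 31.3 FPKM) and Hsph1 (22.2 to 33.5 FPKM), the Hsp110 nucleotide exchange factor, were lower than these in the same libraries.

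Between the compartments of the control cultures, Dnajb12 and Hspb1 were higher in axons after adjustment over all genes. Hspa5, Hsp90b1, Dnajc3, Cct3 and Cct5 were higher and Dnajc6 was lower at an unadjusted p only. Of 68 members tested, 7 were higher and 1 was lower in axons at an unadjusted p under 0.05 in limma, against 8.09% and 7.31% of all 14062 genes. After adjustment over all genes 2 members remained, Dnajb12 and Hspb1, against 2.1% of all genes. Both adjusted calls ended with FPKM as deposited (limma adjusted p = 0.133 and 0.071), where only Dnajc6 passed, against 4.12% of all genes, and with a pseudocount of 0.1 or a block on the replicate number 0 members passed. The members' median log2 difference was 0.04, and that of all genes was -0.03. With FPKM as deposited, the median of all genes was -0.47, the members' median was -0.46, and the split was 2 higher and 9 lower, against 3.36% and 16.6% of all genes on that scale. A higher level in axons therefore means higher relative to the typical transcript of the library.

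Dnajb12 (chr10:59879556-59899302, plus strand, GRCm38), a membrane-anchored J-protein of the ER, was at 19.3, 18.9, 14.1 and 13.8 FPKM in the 4 axonal control libraries. Its levels in the somatodendritic control libraries were 6.78, 6.17, 8.56 and 7.62 FPKM. Every axonal library lay above every somatodendritic library. The log2 difference on scaled values was 1.63 (SE 0.413, limma adjusted p = 0.0379), and it was 1.07 (unadjusted p = 0.0144) with FPKM as deposited. The adjusted call was lost when both libraries of any control number, or both of knockdown number 1, were left out together, with log2 differences between 1.52 and 1.74 over the leave-one-out fits. In knockdown cultures the difference was 0.24 (SE 0.337, limma adjusted p = 0.755).

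Hspb1 (Hsp27, chr5:135887919-135889563, plus strand), the actin-protecting small heat shock protein, was at 17.9, 21, 7.96 and 1.45 FPKM in axonal control libraries. In somatodendritic control libraries it was listed at 0 in 3 and at 2.03 FPKM in the fourth. That library lay above the lowest axonal one as deposited. The log2 difference was 3.34 (SE 0.885, limma adjusted p = 0.0483), a value that depends on the pseudocount because 3 libraries are at 0. Hspb1 passed the filter on low values only through the axonal libraries, where it is high, so its call is no independent support. On the deposited scale the difference was 2.89 (limma unadjusted p = 0.00425, adjusted p = 0.071). The adjusted call was lost without both libraries of control number 1, 2 or 3, or of knockdown number 2 or 3. Hspb1 shares 50.1% of its 50-base stretches with other genes, mostly the pseudogene Hsp25-ps1, and had at most 7.21 implied fragments. Fibroblast markers (Col1a1, Col1a2, Col3a1 and Dcn) summed to 11.9 to 47.9 FPKM in axonal control libraries. In somatodendritic control libraries the sum was 1.25 to 11.9 FPKM. Col1a1 held most of the axonal sum (11.9 to 36.5 FPKM). Dcn was not higher in axonal libraries (0 to 1.28 FPKM against 0 to 2.04 FPKM). In axonal knockdown replicates 5 and 6 Hspb1 was at 0, with fibroblast sums of 56.9 and 22.6 FPKM. No marker of that list was at 0 throughout a control group. Cryab, another small heat shock gene under a different name, was at 10.7 to 46.7 FPKM against 1.91 to 10.8 FPKM. The part of these cells in the result was not tested.

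Dnajc6 (chr4:101496648-101642799, plus strand) was at 27.2, 21.7, 29.2 and 68.4 FPKM in axonal and at 126, 113, 99.3 and 138 FPKM in somatodendritic control libraries. The groups did not overlap, although axonal control replicate 4 lay far above the other axonal libraries. Its log2 difference was -1.23 (SE 0.378, limma adjusted p = 0.0941) in control and -1.71 (SE 0.308, limma adjusted p = 0.0033) in knockdown cultures. It passed in both with FPKM as deposited (limma adjusted p = 0.0162 and 0.00236). It was the member that stayed lower in axons, after adjustment, in all leave-one-out fits of the knockdown cultures. The neuron markers as a list had a lower sum in axonal control (400.0 to 658 FPKM) than in somatodendritic control libraries (1530 to 1770 FPKM), and their part in the result was not tested.

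Of the members higher in control axons at an unadjusted p only, Hspa5, Hsp90b1 and Dnajc3 encode ER proteins and Cct3 and Cct5 chaperonin subunits. Other ER members did not pass, among them Dnajb9 (-1.41, limma unadjusted p = 0.0661), Dnajb11 (0.26) and Dnajc10 (0.99, limma unadjusted p = 0.055), which were chosen after their values were seen. Hspa5 was at 217, 200, 141 and 131 FPKM in axonal and 122, 134, 160.0 and 161 FPKM in somatodendritic control libraries. As deposited these ranges overlap, and after scaling every axonal library lay above. The log2 difference was 0.82 (SE 0.316, limma unadjusted p = 0.0169, adjusted p = 0.198). Hsp90b1, at 86.0, 77.2, 97.2 and 97.7 FPKM against 67.5, 86.6, 58.0 and 89.5 FPKM, differed by 0.84 (SE 0.354, limma adjusted p = 0.242). Dnajc3 (p58IPK), a J-protein of the ER lumen, was at 7.10, 8.76, 3.96 and 11.1 FPKM against 4.29, 3.06, 2.41 and 3.88 FPKM and differed by 1.44 (SE 0.516, limma adjusted p = 0.155). Cct3 (0.96, SE 0.367) and Cct5 (0.70, SE 0.284) had unadjusted p-values of 0.0156 and 0.0223 in limma. Without both libraries of control number 1 the members higher in axons numbered 4 in place of 7, and Hspa5 (0.62), Hsp90b1 (0.81) and Cct3 (0.74) missed the threshold. Hspa5 (0.73) and Cct3 (0.86) also missed it without number 2, Hsp90b1 (0.65) without number 3, and Cct5 without number 2 or 3. All 5 of these genes had an unadjusted p above 0.05 with FPKM as deposited. Of 12 further ER chaperones, 4 were higher in control axons at an unadjusted p (Canx, Pdia3, Creld2 and Serpinh1) and 1 was lower (Sil1, which passed the filter through libraries other than the axonal controls), against the 8.09% and 7.31% of all genes given above. The 4 became 1 with FPKM as deposited, where Serpinh1 alone stayed higher. Serpinh1, the collagen chaperone, had the largest difference of them (3.44, limma adjusted p = 0.00564).

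Promoter letters were then searched in all members with a window. The windows were the RefSeq sequences of GRCm38.p6 from 250 bases before to 50 bases after each transcription start, which exist for 67 of the 82 symbols. The ER stress response element was searched as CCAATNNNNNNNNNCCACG on both strands. It was found in 39 of all 32851 windows (0.119%) and in 3 of the 67 members, Hspa5, Hsp90b1 (at 2 places) and Dnajc3. The heat shock element, searched as GAANNTTCNNGAA and TTCNNGAANNTTC, which are reverse complements of each other, was found in 198 windows (0.603%) and in 4 of the 67 members, Dnajb6, Hspd1, Hspe1 and Hsph1. Counted by window, 3 of the 86 windows of members held the ER element (3.49%) and 6 held the heat shock element (6.98%). The windows of the ER members Dnajb12, Dnajb9, Dnajb11 and Dnajc10 did not hold the ER element, and those of Hspa1a and Hspa1b did not hold either set of letters. A match is a description of the letters and not a measured binding site. The lines below show the ER element, in capitals, with 25 bases on each side, in the direction of transcription, because these 3 members are described above.
Hspa5, chr2:34772000-34772068, plus strand: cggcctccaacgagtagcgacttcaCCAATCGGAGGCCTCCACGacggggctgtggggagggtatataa
Hsp90b1 (distal), chr10:86705613-86705681, minus strand: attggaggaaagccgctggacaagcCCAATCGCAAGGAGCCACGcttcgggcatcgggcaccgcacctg
Hsp90b1 (proximal), chr10:86705508-86705576, minus strand: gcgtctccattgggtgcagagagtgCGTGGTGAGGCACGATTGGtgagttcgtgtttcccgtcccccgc
Dnajc3, chr14:118937802-118937870, plus strand: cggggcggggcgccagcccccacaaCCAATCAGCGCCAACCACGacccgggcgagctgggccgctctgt

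The heat shock element is shown likewise, in capitals, for Dnajb6 and for Hspe1, whose start lies head to head with that of Hspd1, so that the 2 subunits of the mitochondrial chaperonin have this stretch in common. Another match in the Hspe1 stretch overlaps the one in capitals and starts in the lower-case letters before it.
Dnajb6, chr5:29735827-29735889, plus strand: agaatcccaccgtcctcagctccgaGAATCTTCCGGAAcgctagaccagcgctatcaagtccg
Hspe1 and Hspd1, chr1:55088039-55088101, plus strand: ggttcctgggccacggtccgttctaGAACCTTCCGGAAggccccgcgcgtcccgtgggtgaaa

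In knockdown cultures Dnajc6, Dnajc5 and Hspa12a were lower and Hspa5, Cct8 and Dnajc9 higher in axons after adjustment. At an unadjusted p, 10 members were higher and 6 were lower in axons of 68 tested, against 9.52% and 11.1% of all genes. After adjustment there were 6, against 5.35% of all genes. Of these, Dnajc6 alone passed with a block on the replicate number or with a fit of the knockdown libraries alone, and 3 members (Dnajc6, Hspa5 and Cct8) passed without the libraries under a relative depth of 0.5. With FPKM as deposited the unadjusted split was 5 higher and 6 lower, against 6.95% and 16.2% of all genes. The adjusted calls on that scale were 0 higher and 4 lower (Dnajc6, Dnajc5, Hspa12a and Hspa1b), against 7.04% of all genes, so those of Hspa5, Cct8 and Dnajc9 ended. Dnajc6 and Dnajc5 were lower in axons, Dnajc5 by a log2 difference of -0.99 (SE 0.279, limma adjusted p = 0.0408). Hspa5 was higher by 1.01 (SE 0.258, limma adjusted p = 0.025), with 134 to 438 FPKM in axonal (median 270.0) and 81.0 to 218 FPKM in somatodendritic libraries (median 149). The highest Hspa5 value was that of the library labelled axonal knockdown replicate 1. Cct8 was higher by 0.94 (SE 0.272, limma adjusted p = 0.0457). The remaining pair, named after their values were seen, were Hspa12a (-1.87, limma adjusted p = 0.0202), a distant Hsp70 relative, and Dnajc9 (1.20, limma adjusted p = 0.0295), a J-protein that binds histones. Only Dnajc6 kept an adjusted p under 0.05 without both libraries of knockdown number 1 or of number 6, and only Dnajc6 and Hspa12a did without those of number 2. Marker sums differed between the same libraries, with fibroblast markers at 11.4 to 81.1 FPKM in axonal and 0 to 11.3 FPKM in somatodendritic libraries, dividing-cell markers (Mki67, Top2a and Cdk1) at 15.6 to 253 FPKM and 0.955 to 57.4 FPKM, and neuron markers at 564 to 1430 FPKM and 1500 to 2350 FPKM. No marker of these lists was at 0 throughout a group, and their part in these calls was not tested. Whether these differences differ from those of the control cultures is tested by the interaction below.

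**Figure D2:**
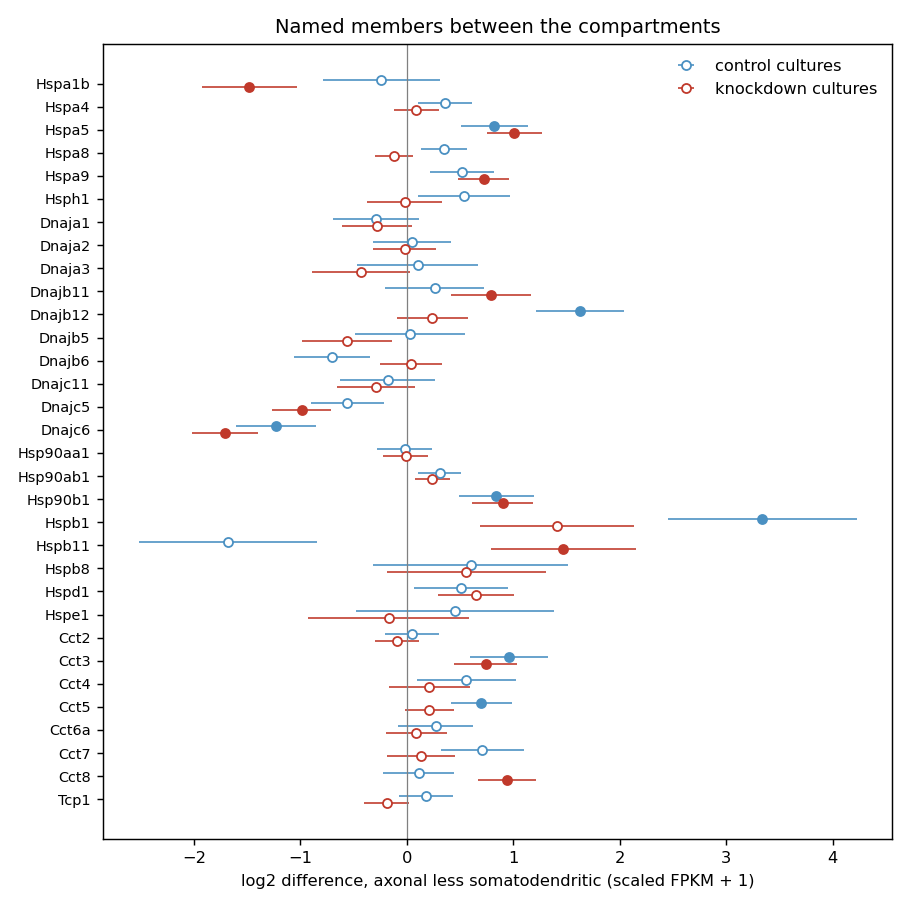
Log2 difference between axonal and somatodendritic libraries (scaled FPKM + 1, error bars are SE) of the named members in control (blue, 4 per compartment) and knockdown cultures (red, 6 per compartment). Filled points have an unadjusted p under 0.05 in limma. Dnajb12 and Hspb1 lie far to the right in control cultures, and Dnajc6 lies to the left in both.

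In the somatodendritic compartment, Cct8, Cct3, Cct7 and Tcp1 of the cytosolic chaperonin, the mitochondrial Hspa9 and Hspd1, and Hsp90b1, Dnajc9 and Dnaja4 were lower after knockdown at an unadjusted p, and Hspa1b and Dnajc6 were higher. At an unadjusted p in limma, 9 of 67 members were lower and 2 were higher, against 9.22% and 4.59% of all 13762 genes. None passed adjustment, against 0.974% of all genes. The median log2 change of the members was -0.21, and that of all genes was -0.13. The split depended on the scaling. With FPKM as deposited, 2 members were lower (Cct8 and Hspa9) and 5 were higher, against 5.44% and 9.27% of all genes, while the median of all genes moved to 0.04. Without control replicate 4 the number of lower members was 3. In these libraries neuron markers summed to 1530 to 1770 FPKM in control and 1500 to 2350 FPKM after knockdown. Astrocyte markers (Gfap, Aqp4, Slc1a3 and Aldh1l1) summed to 95.9 to 151 FPKM and 84.6 to 217 FPKM. The part of these cells in the calls was not tested.

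Hspa1b (chr17:34956436-34959238, minus strand), a heat-inducible Hsp70, was at 1.21, 3.64, 1.81 and 2.49 FPKM in somatodendritic control libraries. The 6 knockdown libraries were at 4.36 to 10.9 FPKM (median 7.12), all above the controls, and the mean was 329% of that of the controls. The log2 change was 1.18 (SE 0.379, limma unadjusted p = 0.00865, adjusted p = 0.171), and the exact permutation test of the 210 splits gave p = 0.0238 (two-sided, smallest possible 0.00476). It was the only member with separated groups in this direction on scaled values, against 1.9% of all genes. As deposited, Hspa1b, Dnajc5 and Dnajc6 were separated upwards, against 4.24% of all genes, and no member downwards, against 1.96%. The near-identical Hspa1a, at 1.19 to 4.68 FPKM in control and 0.83 to 3.29 FPKM in knockdown libraries, was at 98.4% of control. Hspa1b shares 62.3% of its 50-base stretches with Hspa1a, so that reads may be split between them in an uncertain way. The sum of both was 2.77 to 8.32 FPKM in control and 6.98 to 13.7 FPKM in knockdown libraries (exact permutation p = 0.0381 as deposited and 0.0524 scaled), and these ranges overlap. Hspa1b had 0.917 to 3.0 implied fragments in somatodendritic control and 0.379 to 10.9 in somatodendritic knockdown libraries (median 1.01 over all 20 libraries). In axonal libraries it was at 0 to 1.86 FPKM in control and 0 to 3.73 FPKM in knockdown libraries.

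Hspa9 (mortalin), the mitochondrial Hsp70 that pulls proteins through the inner membrane, was at 46.7, 62.5, 53.8 and 54.5 FPKM in somatodendritic control libraries and at 25.2 to 51.3 FPKM (median 40.9) after knockdown. The groups overlapped as deposited and were separated after scaling, as was the case for 3.6% of all genes in that direction. The log2 change was -0.66 (SE 0.197, limma adjusted p = 0.139), and the exact permutation p was 0.00476 on scaled values, the smallest possible, and 0.0286 as deposited. Hspd1, the ring subunit of the mitochondrial chaperonin, was at 23.0, 16.4, 22.2 and 30.8 FPKM and after knockdown at 7.94 to 26.9 FPKM (median 17.8). Its log2 change was -0.65 (SE 0.286, limma adjusted p = 0.337), and it lost the unadjusted call in 6 of the 10 leave-one-out fits, with values between -0.78 and -0.47. The lid Hspe1 did not pass (-0.94, SE 0.821, limma unadjusted p = 0.273). Hspd1 shares 42.1% of its 50-base stretches with other genes, mostly the pseudogene Hspd1-ps3, and Hspe1 shares 22.8%.

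Cct8 (chr16:87483326-87495873, minus strand), the theta subunit of the cytosolic chaperonin, had the smallest limma p-value of all members in this comparison. It was at 86.9, 77.2, 49.9 and 90.4 FPKM in somatodendritic control libraries. After knockdown it was at 32.5 to 59.2 FPKM (median 47.4), and 4 of the 6 libraries lay below all controls. The mean was 61.0% of control, the log2 change was -0.90 (SE 0.221, limma unadjusted p = 0.0014, adjusted p = 0.0793), and the exact permutation p was 0.0143 as deposited. The call at an unadjusted p held in every leave-one-out fit, with changes between -1.09 and -0.79. Without the libraries under a relative depth of 0.5, Cct8 was the only member to pass adjustment.

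A further 3 subunits were lower at an unadjusted p. Cct3 fell by 0.82 (SE 0.316, limma adjusted p = 0.269), Cct7 fell by 0.82 (SE 0.314, limma adjusted p = 0.268) and Tcp1 fell by 0.53 (SE 0.182, limma adjusted p = 0.203), all on the log2 scale. Tcp1, the alpha subunit, was at 76.8, 77.7, 58.7 and 61.2 FPKM in controls and at 40 to 73.9 FPKM (median 54.2) after knockdown. Without control replicate 4, Cct3 (-0.77) and Cct7 (-0.78) missed the threshold, as did Cct3 without control replicate 2 (-0.76) and Cct7 without control replicate 3 (-0.79). With FPKM as deposited, the changes of Cct3 (-0.61), Cct7 (-0.61) and Tcp1 (-0.32) did not pass. Cct2 (0.08), Cct5 (0.06), Cct6a (-0.37) and Cct4 (-0.50) did not pass, and for Cct4 the library of somatodendritic knockdown replicate 6 stood apart. Cct4 was at 86.3 FPKM there, against 19.6 to 27.2 FPKM in the other 5 and 31.3 to 40.5 FPKM in controls. Without it the change of Cct4 was -0.82 (limma unadjusted p = 0.000769).

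The remaining members called in somatodendritic libraries were Hsp90b1 (-0.58, SE 0.228, limma adjusted p = 0.284), Dnajc9 (-0.81, SE 0.298, limma adjusted p = 0.244), Dnaja4 (-1.22, SE 0.520, limma adjusted p = 0.313) and, in the other direction, Dnajc6 (0.36, SE 0.159, limma adjusted p = 0.337). Dnajc6 was at 126, 113, 99.3 and 138 FPKM in control and at 138 to 240.0 FPKM (median 162) in knockdown libraries. Over the 10 leave-one-out fits, the unadjusted call was lost in 4 for Hsp90b1, in 2 for Dnajc9, in 6 for Dnaja4 and in 5 for Dnajc6. Dnaja4 passed the filter only through the control libraries, where it is high, and was below 4 FPKM in all somatodendritic libraries. Of its 50-base stretches, 42.7% lie in the overlapping gene Wdr61, from which its reads cannot be told apart because no strand setting is given. Hspa8 (0.02), Hspa5 (-0.21), Hspa4 (-0.21), Hsp90ab1 (0.11) and Hsp90aa1 (-0.27), which hold most of the FPKM of their families, did not pass. Hsph1 (0.40, SE 0.212, limma unadjusted p = 0.0822) and Hsp90ab1 passed at an unadjusted p with FPKM as deposited (0.61 and 0.32), the Hsp90ab1 mean being 126% of control.

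**Figure D3:**
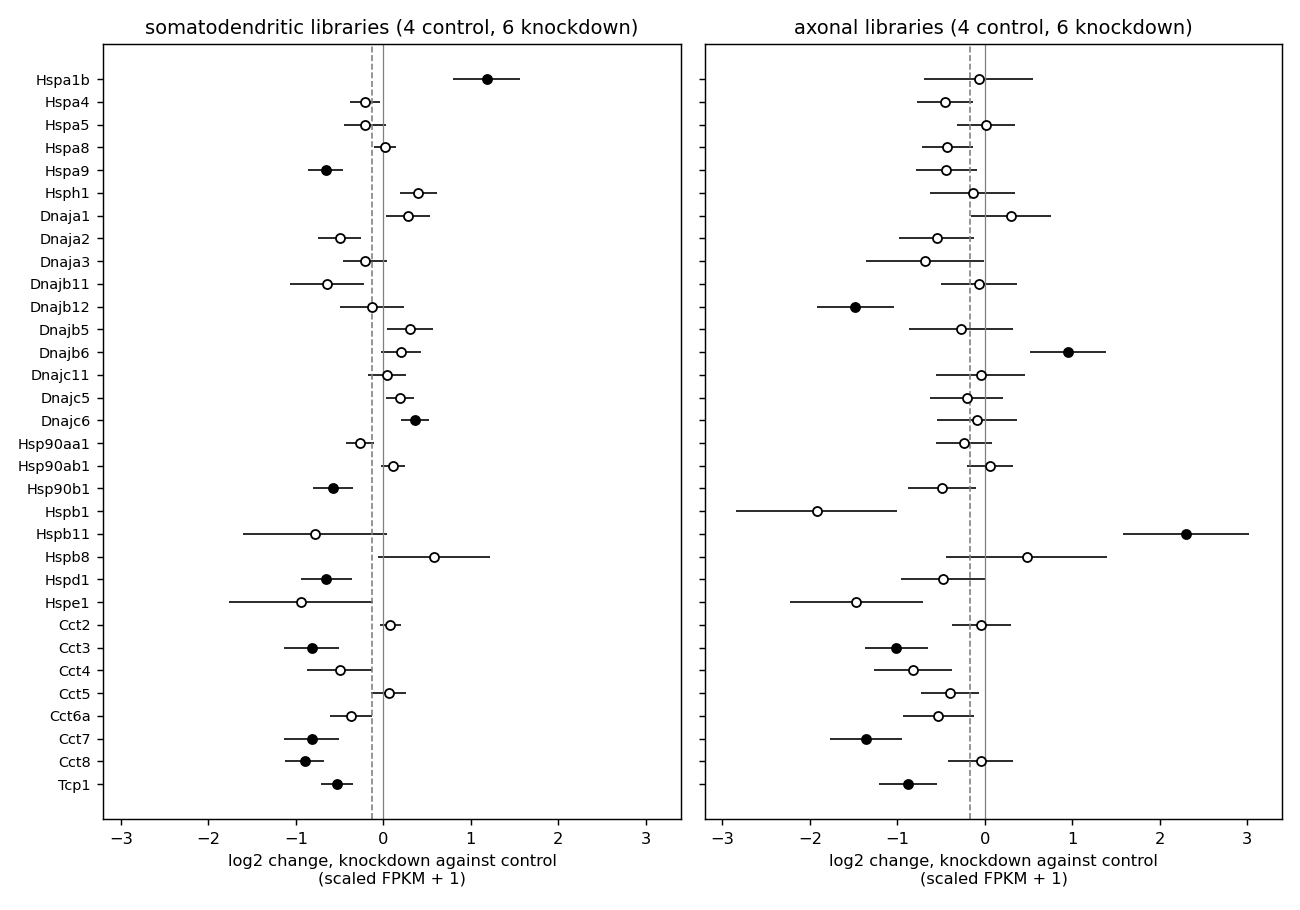
Log2 change after Tdp-43 knockdown (scaled FPKM + 1, error bars are SE) of the named members in somatodendritic (left) and axonal libraries (right), by family. Filled points have an unadjusted p under 0.05 in limma, and the dashed line is the median of all genes (-0.13 and -0.17). Cct3, Cct7 and Tcp1 are filled and left of 0 in both panels. Hspb11 is listed at 0 in all axonal controls, so its position depends on the pseudocount.

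In axons, 4 of 68 members were lower and 2 were higher after knockdown at an unadjusted p in limma, against 6.46% and 2.14% of all 13958 genes. None passed adjustment, against 0.401% of all genes. The members' median log2 change was -0.25, and that of all genes was -0.17. With FPKM as deposited, 1 member was lower and 3 were higher, against 2.67% and 7.16% of all genes, and the median of all genes moved to 0.23. Groups were separated on scaled values for 3 lower members (Dnajb12, Cct7 and Tcp1), against 2.02% of all genes, and for no higher member, against 0.451% of all genes. As deposited the split was the opposite, with 1 lower member (Dnajb12), against 0.731% of all genes, and 3 higher members (Dnajc13, Hspa14 and Dnajb14), against 2.52%. Hspa14, a ribosome-associated Hsp70 chosen here after its values were seen, was at 9.25, 5.28, 8.88 and 13.1 FPKM in axonal control libraries and at 14 to 31.6 FPKM (median 19.4) after knockdown. Its mean was 240% of control as deposited and 163% scaled, and the exact permutation p was 0.0143 on both scales. Hspa14 had only 0.306 to 1.57 implied fragments in the axonal controls and 0.134 to 11.5 in the axonal knockdown libraries. The scaled groups overlapped, and the log2 change was 0.70 (SE 0.409, limma unadjusted p = 0.109), or 1.18 as deposited (limma unadjusted p = 0.0176, adjusted p = 0.363). Neuron markers summed to 400 to 658 FPKM in axonal control and 564 to 1430 FPKM in axonal knockdown libraries. Astrocyte markers summed to 25.8 to 185 FPKM and 12.2 to 401 FPKM, and the part of these cells was not tested.

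Dnajb12, which stood out between the compartments of control cultures, was lower in axons of knockdown cultures. Against the 13.8 to 19.3 FPKM of the axonal controls, the 6 knockdown libraries were at 5.33 to 11.7 FPKM (median 7.75), all below the controls also as deposited. The mean was 47.8% of control, with an exact permutation p of 0.00476, the smallest possible, on both scales. The log2 change was -1.48 (SE 0.441, limma unadjusted p = 0.00408, adjusted p = 0.261), and leaving out knockdown replicate 1, the library with unlowered Tardbp, it was again -1.48 (unadjusted p = 0.00728). With all 20 libraries in 1 fit it was the only member to pass adjustment. In somatodendritic libraries Dnajb12 was at 6.17 to 8.56 FPKM in control and 3.56 to 12.9 FPKM in knockdown libraries (log2 change -0.13, SE 0.366). The axonal change less the somatodendritic change was -1.35 (SE 0.600, limma unadjusted p = 0.0431, adjusted p = 0.991), and it missed the unadjusted threshold in 7 of the 10 leave-one-out fits and with FPKM as deposited. Both comparisons of Dnajb12 share the axonal control libraries. No exon of another gene overlaps Dnajb12 and none of its 50-base stretches occurs elsewhere. It had 9.13 or more implied fragments in each axonal control and 0.297 to 7.58 in the axonal knockdown libraries. In somatodendritic libraries it had 2.79 to 7.96 in control and 0.308 to 5.93 after knockdown (median 3.85 over all 20 libraries). Its single values after knockdown therefore carry a large uncertainty.

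Of the 8 cytosolic chaperonin subunits above 0, 3 were lower in axons at an unadjusted p, against 6.46% of all genes, and none was called with FPKM as deposited. Cct7 (chr6:85451514-85468475, plus strand), the eta subunit, was at 39.5, 38.6, 43.5 and 21.3 FPKM in axonal control libraries and at 8.02 to 26.9 FPKM (median 22.9) after knockdown. As deposited the groups overlapped through axonal control replicate 4, and scaled they did not. The log2 change was -1.36 (SE 0.412, limma adjusted p = 0.273) and it was -1.39 with axonal knockdown replicate 1 left out. The exact permutation p was 0.0286 as deposited and 0.00476 scaled. Tcp1 (chr17:12915701-12925067, plus strand) was at 58.0, 46.5, 52.4 and 49.5 FPKM in control and at 28.6 to 63.6 FPKM (median 35.7) in knockdown libraries, with a change of -0.88 (SE 0.328, limma adjusted p = 0.442). Its highest knockdown value was again that of the library labelled axonal knockdown replicate 1, and without the libraries under a relative depth of 0.5 the change was -0.56 and did not pass. Cct3 was at 85.0, 89.4, 35.8 and 52.8 FPKM in control and at 30.6 to 58.5 FPKM (median 44.1) in knockdown libraries. It fell by 1.01 on the log2 scale (SE 0.361, limma adjusted p = 0.401), and missed the unadjusted threshold without control replicate 1 (-0.86) or 2 (-0.85). Of the 8 subunits above 0, all had a log2 change below 0 on scaled values and 5 had one with FPKM as deposited, the exceptions being Cct2 (0.47), Cct8 (0.47) and Cct5 (0.11). Of all 13958 genes, 8200 were below 0 on scaled values and 5319 as deposited. Cct8, the clearest subunit in the somatodendritic libraries, had a log2 change of -0.05 (SE 0.376) in axons, and the axonal less the somatodendritic change was 0.85 (limma unadjusted p = 0.186), or 1.35 without control replicate 3 (limma unadjusted p = 0.0485). The axonal library of that replicate had the highest Cct8 level of the axonal controls.

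The members counted as higher in axons after knockdown were Dnajb6 and Hspb11. Hspb11 passed the filter on low values only through the knockdown libraries, so it had to differ and its call is no support. Dnajb6, a J-protein that keeps aggregation-prone proteins soluble, was at 5.69, 12.7, 6.82 and 18.9 FPKM in axonal control libraries and at 16.5 to 36.3 FPKM (median 32.3) after knockdown. The ranges overlapped, the mean was 267% of control, and the log2 change was 0.95 (SE 0.431, limma unadjusted p = 0.0431, adjusted p = 0.562). It missed the unadjusted threshold without control replicate 1 or 3 and without knockdown replicate 2, 3, 4 or 5, with values between 0.71 and 1.22 over the leave-one-out fits. Dnajb6 had a median of 1.09 implied fragments over all 20 libraries and 0.0779 to 0.609 in the axonal controls. Of its 50-base stretches, 21% occur in other genes. Hspb11, a cilium transport subunit carried in this family by its symbol, was listed at 0 in all 4 axonal control libraries and at 0 to 15.8 FPKM (median 5.38) in the knockdown libraries. It was above 0 in 5 of these 6, but rested on at most 2.43 implied fragments in any library. In somatodendritic libraries it was at 0 to 5.02 FPKM in control and 0 to 9.07 FPKM in knockdown libraries. No fold change is given against a group at 0. Hspb1 was lower in axons without passing the threshold, with 0 FPKM in 3 of 6 knockdown libraries and 7.26 to 18.2 FPKM in the other 3 (log2 change -1.92, limma unadjusted p = 0.053). Leaving out axonal knockdown replicate 1, in which Tardbp was not lowered, gave a change of -2.33 (limma unadjusted p = 0.0201).

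**Figure D4:**
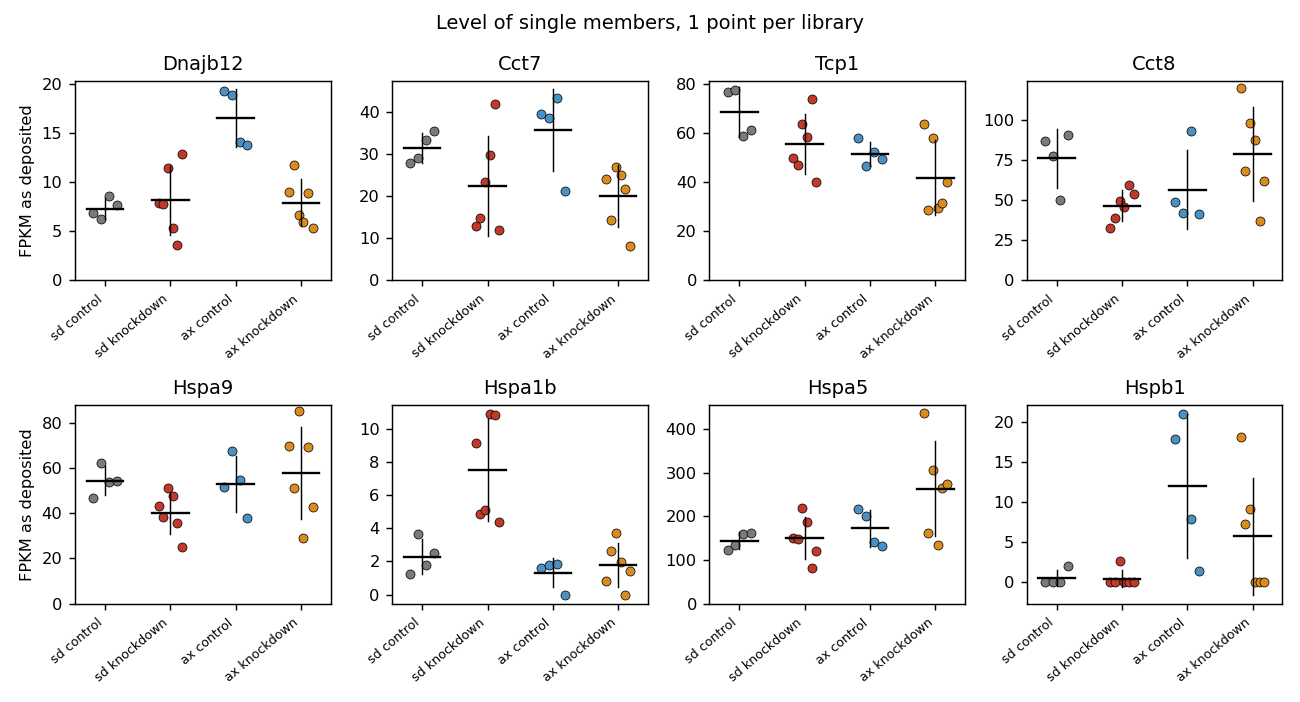
FPKM as deposited of 8 members in each library of the somatodendritic (sd) and axonal (ax) groups, with the mean (bar) and SD (line). For Dnajb12 all 4 axonal controls (13.8 to 19.3 FPKM) lie above all other libraries, and for Hspa1b all 6 somatodendritic knockdown libraries (4.36 to 10.9 FPKM) lie above the rest.

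Over all members, the knockdown change differed between compartments at an unadjusted p for 2 of 66 (Dnajb12 and Hspb11), against 4.81% of all 12646 genes, and Hspb11 is listed at 0 in all axonal controls. No gene of the table passed adjustment in that limma test.

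The subunits of the cytosolic chaperonin can also be compared within a library, which needs no scaling between libraries. They occupy fixed places in the ring, so that their proteins are needed in equal number, whereas their transcripts were not equal per length. The 8 subunits summed to 376 to 477 FPKM in somatodendritic control, 338 to 470.0 FPKM in somatodendritic knockdown, 352 to 459 FPKM in axonal control and 318 to 581 FPKM in axonal knockdown libraries, and these ranges overlap. Cct2, the beta subunit, was the highest of the 8 in 9 of the 20 libraries and among the top 3 in 17. Cct5, the epsilon subunit, was also among the top 3 in 17. Cct7 was the lowest in 11 libraries and Cct6a in 5. The order may depend in part on the gene models, since FPKM is scaled to transcript length. All exons of a gene together cover 2557 bases for Cct2 and 6778 bases for Cct7 in GENCODE M21. These need not be the lengths used for the deposited values.

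The spread among subunits was wider after knockdown in the somatodendritic compartment. The highest subunit was 2.67 to 3.76 times the lowest in control libraries (median 2.92) and 3.91 to 9.24 times in knockdown libraries (median 7.12), without overlap. In axonal libraries the ratio was 2.57 to 5.19 in control and 3.78 to 8.51 in knockdown libraries, which overlap. These ratios are given as a description, with no test. Depth moved with them, since 2 of the 6 somatodendritic knockdown libraries had a relative depth under 0.5 and no control library did. In the other 4 the ratio was 3.91 to 8.54, above the highest control ratio of 3.76. Their relative depth was 0.526 to 0.698, against 0.612 to 1 in the controls, and the part of depth in the ratio was not tested. The Cct8 share of the summed FPKM of the 8 subunits was 13.3% to 19.3% in somatodendritic control and 8.52% to 12.6% in somatodendritic knockdown libraries, the only share whose groups were separated. In axons the Cct8 share was 9.11% to 24.0% in control and 9.98% to 21.9% in knockdown libraries. The Cct2 share exceeded that of all controls in 5 of 6 knockdown libraries in both compartments. It was 16.5% to 19.7% in control and 19.1% to 30.0% in knockdown libraries on the somatodendritic side, and 12.1% to 16.6% and 11.0% to 27.4% on the axonal side. The Cct7 share was below that of all axonal controls in 5 of 6 axonal knockdown libraries, with 6.05% to 11.2% in control and 2.52% to 6.26% in knockdown libraries.

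**Figure D5:**
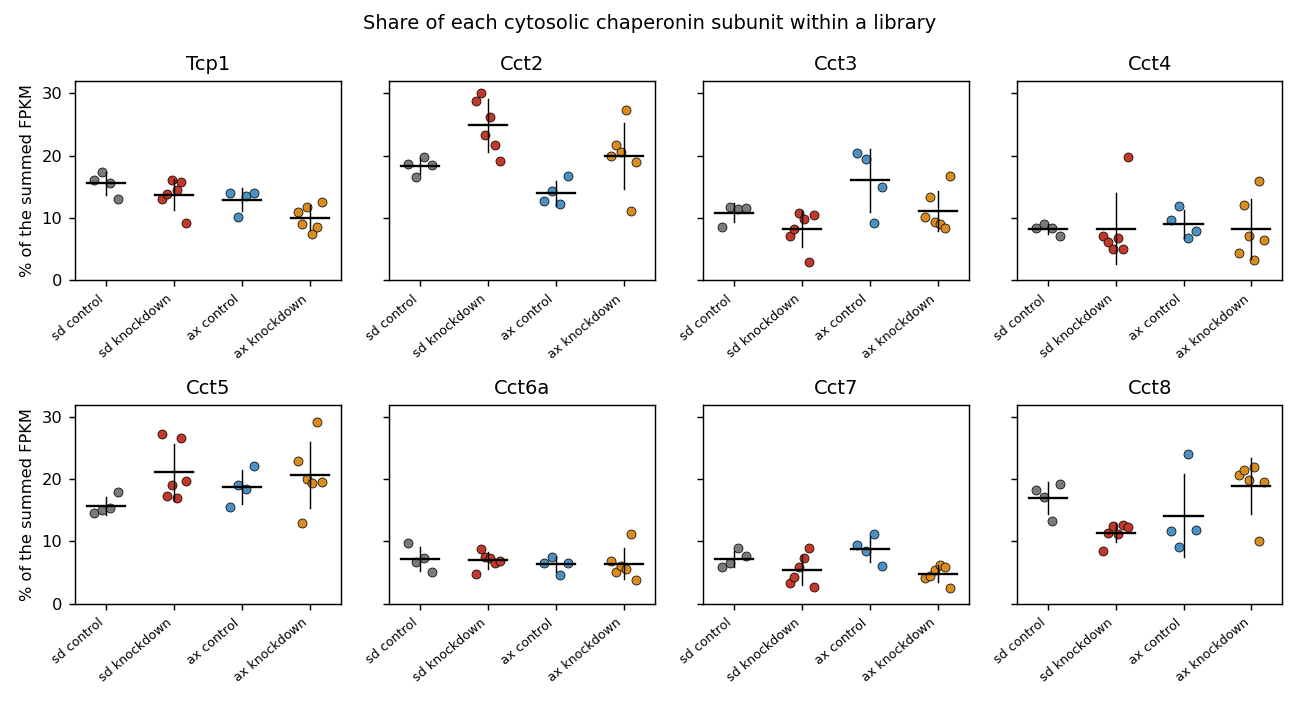
Share of each of the 8 cytosolic chaperonin subunits in their summed FPKM, 1 point per library, with the mean (bar) and SD (line), in somatodendritic (sd) and axonal (ax) libraries. The Cct8 share of the sd knockdown libraries (8.52% to 12.6%) lies below that of all sd controls (13.3% to 19.3%).

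The partners of these chaperones that the symbols do not name were read from 7 lists with 57 genes in the files. In somatodendritic libraries, 2 were higher and 8 were lower of 52 tested after knockdown at an unadjusted p in limma, against 4.59% and 9.22% of all genes, and none after adjustment, with a median log2 change of -0.22 against -0.13 for all genes. The split turned to 6 higher and 4 lower with FPKM as deposited, where the median was -0.02 against 0.04 for all genes. Hsf1, the transcription factor of the heat shock response, was one of those higher. It was at 3.68, 1.12, 2.75 and 4.54 FPKM in control and at 4.93 to 10.8 FPKM in knockdown libraries (log2 change 1.01, SE 0.366, limma adjusted p = 0.231). These groups were separated as deposited, as was the case for 4.24% of all genes in that direction, and overlapped after scaling. Hsbp1, a binding protein that inhibits Hsf1, was lower (-0.51, limma adjusted p = 0.151). Among the Hsp70 and Hsp90 cochaperones, Stip1 was higher (0.36) and Ahsa1 (-0.97), Fkbp5 (-0.91), Stub1 (-0.92) and Bag5 (-1.40) were lower. Pfdn5 of prefoldin, which hands actin and tubulin to the chaperonin, was lower (-2.49, limma adjusted p = 0.234), as were the tubulin cofactor Tbcb (-0.72) and Grpel1 (-1.05), the nucleotide exchange factor of Hspa9. The calls of Hsbp1, Stub1, Bag5 and Tbcb ended with FPKM as deposited.

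In axons, 3 of 53 partners were lower after knockdown at an unadjusted p in limma, against 6.46% of all genes. They were Fkbp5 (-2.16), Sgta (-0.96) and the mitochondrial protease subunit Clpp (-1.53), and none was higher or passed adjustment. The median log2 change of the 53 was -0.50, against -0.17 for all genes. With deposited values none was lower and 2 were higher, their median was -0.05 against 0.23, and 999 of all 13958 genes were higher and 373 lower. Between compartments, 7 of 54 partners were higher and 2 were lower in control axons, and 9 were higher and 3 were lower in knockdown axons. The shares of all genes were 8.09% and 7.31% in control and 9.52% and 11.1% in knockdown cultures. As deposited the partners gave 3 and 5 in control and 5 and 9 in knockdown axons, against 3.36% and 16.6%, and 6.95% and 16.2%, of all genes. Cryab was higher in axons in both (2.71 and 3.03, limma adjusted p = 0.0999 and 0.0132), as was Serpinh1 (3.44 and 3.27, limma adjusted p = 0.00564 and 0.00116). The fibroblast markers had higher sums in the same axonal libraries, 11.9 to 47.9 FPKM in control and 11.4 to 81.1 FPKM in knockdown, against 0 to 11.9 FPKM in all somatodendritic ones, and their part in these values was not tested.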

How the data were processed

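Per the labels, the authors deposited FPKM values, with the bounds of a confidence interval, from Cufflinks 2.2.1 on GRCm38 for each library after read control with FastQC 0.10.1. Aligner settings, strand setting and read totals are not given in the sources used here. The RNA was amplified by PCR before sequencing, so implied fragments are not independent molecules and leave out error from the amplification. They reflect the width of the interval and are not read counts. Dnajb6, for example, was at 5.69 FPKM with 0.0779 implied fragments in axonal control replicate 1. Implied fragments were computed as the square of FPKM divided by 1 SD, taken as the distance to the upper bound over 2, and relative depth over 680 genes above 3 fragments in every library. Values at or under 0.001 FPKM count as 0.

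Median-of-ratios scaling used genes at or above 1 FPKM in every library (7619 genes somatodendritic, 5112 axonal, 4577 over all 20). Factors were 0.779 to 1.52 in axonal and 0.905 to 1.15 in somatodendritic libraries within a compartment. limma 3.58.1 (R 4.3.3, trend) was fitted on log2(FPKM + 1) wherever a gene's mean reached 1 FPKM, with Benjamini-Hochberg adjustment over all genes and a threshold of 0.05. Knockdown was tested within a compartment, compartments in 1 fit of 4 groups, and the interaction on axonal less somatodendritic differences of libraries with the same number, which the labels do not tie to a culture. For single levels, 4 against 6 libraries were permuted exactly (two-sided). The fits were tested on simulated data. Other steps used Python 3.11.15 with pandas 2.3.3, numpy 2.4.6 and matplotlib 3.10.9.

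Members and lists were chosen with earlier results of these data known. Named are the 8 chaperonin subunits, the 3 highest members of each family, members called in a knockdown comparison with separated groups, members with an adjusted p under 0.05 between control compartments and members called in the interaction, 32 in all. Other members called at an unadjusted p are named with their values as well, and were chosen after those were seen. Positions come from GENCODE M21, which holds 82 of the 83 rows. Alternatives were FPKM as deposited, quantile normalization, other pseudocounts and filters, joint or separate fits, the replicate number as a block, leaving out each library and leaving out shallow libraries.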

Additional observations from a re-analysis of the deposited data

Results flagged for a closer look

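Among 127 groups of named members with at least 4 libraries, 10 (7.87%) had 1 library far from the others by Dixon's criterion, of which chance flags about 1 in 20. These were Cct4 in somatodendritic knockdown replicate 6 (86.3 FPKM, next 27.2), Cct6a in somatodendritic knockdown replicate 1 (18.1 FPKM, next 29.6) and Cct8 in axonal control replicate 3 (93.3 FPKM, next 48.8). Axonal control replicate 4 stood apart in Dnaja1 (70.5 FPKM, next 15.4), in Dnajc6 (68.4 FPKM, next 29.2) and in Hspa1b (0 FPKM, next 1.57). Axonal control replicate 3 stood apart in Dnajb11 (19.9 FPKM, next 11.3) and axonal control replicate 2 in Hspe1 (55.4 FPKM, next 18.6). Hspb1 was above 0 in only 1 library of each somatodendritic group, control replicate 4 (2.03 FPKM) and knockdown replicate 3 (2.63 FPKM).

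The knockdown change of Dnajb12 in axons less that in somatodendritic libraries was -1.35 (limma unadjusted p = 0.0431, adjusted p = 0.991). For Hspb11 the fitted difference was 3.08 (limma unadjusted p = 0.00763, adjusted p = 0.982). Hspb11 passed the filter on low values in axons only through the knockdown libraries. Its difference is no bound on a fold change, since all 4 axonal controls are listed at 0 and the value depends on the pseudocount.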

How the results depend on the processing

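No call of a named member reversed. Of 2955 recomputed values of named members, 2802 kept their side of the limma threshold, 95 lost it and 58 gained it. Of 340 recomputed counts and medians over all members, 68 moved by more than the limit set for them (1.5 times for counts), and the cause was not tested.

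With FPKM as deposited, members called after knockdown at an unadjusted p were 2 lower and 5 higher in place of 9 and 2 (somatodendritic) and 1 lower in place of 4 (axonal). Between compartments they were 2 higher and 9 lower in place of 7 and 1 in control cultures, with 1 after adjustment (Dnajc6, lower) in place of 2 (Dnajb12 and Hspb1, both lost), and 5 higher in place of 10 in knockdown cultures. With quantile normalization the control compartments gave 4 higher and 5 lower.

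With all 20 libraries in 1 fit, 1 member was higher in somatodendritic knockdown libraries, 7 were lower in axonal ones, and 1 axonal member (Dnajb12) passed adjustment. Without libraries under a relative depth of 0.5, 1 somatodendritic member (Cct8) passed adjustment, 6 members were lower in control axons, 5 passed adjustment there and 3 in knockdown cultures, and the interaction called 1 in place of 2. A filter at a mean of 5 FPKM left 1 higher in axonal knockdown libraries, 1 adjusted call in control compartments, 3 lower in knockdown axons in place of 6, and 1 in the interaction. A pseudocount of 0.1 gave 2 lower and 0 adjusted calls in control compartments, where 1028 lower and 1137 higher genes of the whole table had an unadjusted p under 0.05 in the reported fit. A pseudocount of 5 gave 2 lower, and no filter gave 2 lower and 1 adjusted. Fits on one condition alone gave 5 lower in control axons and 1 adjusted call in knockdown cultures in place of 6. The members' median less that of all genes was -0.08 in somatodendritic knockdown, and -0.01 at a pseudocount of 0.1, -0.13 at a mean of 5 FPKM and -0.14 without shallow libraries.

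Same-numbered libraries did not deviate together (correlations of deviations -0.063 to 0.0882), so no pairing by number is shown. The interaction nevertheless took differences of same-numbered libraries, and the compartment fits left out both libraries of a number together. With the replicate block, somatodendritic knockdown gave 12 lower and 3 higher members and axonal knockdown 5 lower and 2 higher, control compartments 3 lower and 0 adjusted, knockdown compartments 1 adjusted, and the somatodendritic median difference was -0.14. Without using the numbers, the interaction called the same 2 members, Dnajb12 (-1.35, limma unadjusted p = 0.0173) and Hspb11 (3.08, limma unadjusted p = 0.0104).

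Leaving out each library in turn gave, in somatodendritic knockdown, 3 to 10 lower (3 without control replicate 4) and 1 to 4 higher, in axonal knockdown 3 to 6 lower and 1 to 3 higher, and 0 adjusted calls in both. In control compartments it gave 4 to 9 higher, 1 to 4 lower and 0 to 2 adjusted. In knockdown compartments it gave 6 to 10 higher (6 without knockdown replicate 2), 5 to 7 lower and 1 to 5 adjusted (1 without knockdown replicate 1 or 6), and in the interaction 1 to 3. The somatodendritic median difference ranged from -0.13 to -0.04. Depth limits members at a few implied fragments, and such values cannot show small changes.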
